A study of Caenorhabditis elegans with 2 samples.

Results

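Peaks of the GFP-tagged zinc finger protein ZTF-23 at the tRNA genes of *Caenorhabditis elegans* embryos are described here. A peak was taken as a tRNA peak when its summit, the point of highest signal, lay within 200 bp of the span of a nuclear gene annotated as tRNA. The rule found 256 tRNA peaks among the 2213 nuclear peaks of the combined list that its authors call conservative, and 277 of 612 nuclear tRNA genes had such a summit. ChIP-seq, the sequencing of DNA fragments pulled down with a protein, was done on whole mid-stage embryos (1.5 hours per the labels) of strain RW12279, obtained by egg bleaching. These animals carry st12279, a CRISPR insertion on chromosome I that joins TY1, EGFP and 3xFLAG tags to ztf-23, and the anti-GFP antibody recognises that tag. There was 1 group of 2 biological replicates per the labels. Control libraries were not analysed here, and the read depth is unknown. Chromatin came from all cells of the embryo, and peak lists hold no expression markers against which stage or cell type could be checked.

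Transfer RNAs carry amino acids to the ribosome, and RNA polymerase III transcribes their genes. The promoter lies inside the gene: the A box near its start and the B box in its distal part are bound by the factor TFIIIC, which brings TFIIIB to the DNA just before the gene. Transcription stops at a run of T after the gene. The worm genome holds many identical copies of most tRNA genes, scattered over all chromosomes and dense on X.

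The following sequences show where the summit falls relative to these elements. They are genes at 4 of the 12 strongest peaks, each with 1 tRNA gene in reach and both boxes matched, read from WBcel235 (the same assembly as ce11) on the gene's strand. Each runs from 30 bases before the gene to 10 after it, and capitals mark the first match to TNGNNNAG (A box) in the first 30 bases of the gene and a match to GTTCNANNC (B box).
C04A11.t1, tRNA-Leu, chrX:13665525-13665683: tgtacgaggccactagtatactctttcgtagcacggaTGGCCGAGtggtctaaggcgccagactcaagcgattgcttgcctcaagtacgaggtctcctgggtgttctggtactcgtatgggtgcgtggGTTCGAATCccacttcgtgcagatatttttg
F57F5.t1, tRNA-Ile, chrV:12002146-12002270: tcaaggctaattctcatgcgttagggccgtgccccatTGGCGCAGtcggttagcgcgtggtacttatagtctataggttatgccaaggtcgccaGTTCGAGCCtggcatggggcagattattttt
ZC455.t1, tRNA-Ser, chrV:12780376-12780497: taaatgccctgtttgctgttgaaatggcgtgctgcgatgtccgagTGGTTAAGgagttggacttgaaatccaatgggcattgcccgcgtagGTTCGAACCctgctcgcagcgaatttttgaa
C02B4.t2, tRNA-Tyr, chrX:12665198-12665321: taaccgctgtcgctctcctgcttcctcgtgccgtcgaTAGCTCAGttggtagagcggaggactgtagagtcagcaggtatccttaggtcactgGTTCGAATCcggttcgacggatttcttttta
In these lines the summit is base 55 for C04A11.t1, 37 for F57F5.t1, 36 for ZC455.t1 and 53 for C02B4.t2. The A box match starts at base 38, 38, 46 and 38, and the B box match at base 129, 95, 92 and 94. All 4 summits therefore lie within the gene and closer to the A box match than to the B box match. In ZC455.t1 the A box match starts at base 16 of the gene. The median over the 512 genes with a match is base 8, so this match may not be the A box itself.

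Summits sat in the 5′ part of the tRNA gene. Measured from the first base of the nearest gene (0), the median summit position was 16 bp downstream (95% order-statistic interval 14 to 20), with quartiles at 6 and 35 bp. Inside the gene lay 195 of 256 summits (76.2%, exact interval 70.5 to 81.3%), 46 lay before it and 15 after it. The first 30 bp of the gene held 131 summits (51.2%). The replicates gave medians of 19 bp (255 summits, interval 15 to 23) and 13 bp (254 summits, interval 11 to 16) in their ranked lists, which hold all regions before the reproducibility threshold. The summits of the same peak in both replicates were a median of 15 bp apart, so a few base pairs cannot be resolved. All intervals given here cover counting error only.

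**Figure D1:**
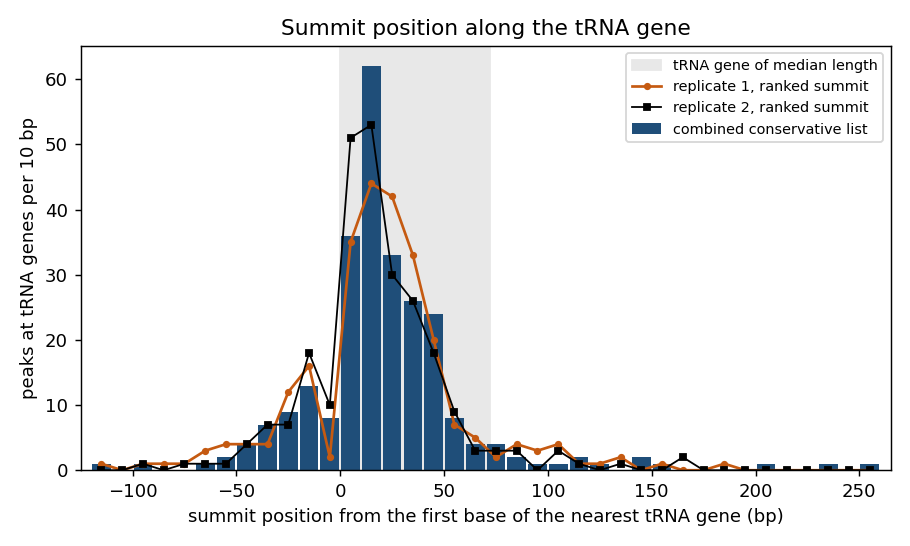
Number of tRNA peaks per 10 bp of summit position (x axis, bp from the first base of the nearest tRNA gene; grey, a gene of the median length of 72 bp) in the combined conservative list (bars) and in the ranked lists of replicates 1 and 2 (lines). The bars are highest just after the gene start, around the median of 16 bp, and both replicates peak there; ranked summits beyond the right edge are not drawn.

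The summit was closer to the A box match than to the B box match in most peaks. It lay a median of 5.5 bp downstream of the centre of the A box match (220 peaks) and 40 bp upstream of the centre of the B box match (247 peaks). Of 211 peaks whose gene had both matches, 156 were nearer the A box match and 55 nearer the B box match. Matches that start at base 16 of the gene, as in ZC455.t1, are included here and may not be the A box itself. In the 34 peaks at genes of 80 bp or longer, among them tRNA-Leu and tRNA-Ser genes with their long variable arm and genes with an intron, the median position was 13.5 bp (interval 9 to 22). There the summit was 53.5 bp before the B box centre, against 38 bp in the 213 peaks at shorter genes with a B box match. The position relative to the gene start was 17 bp (interval 14 to 21) at the 222 peaks of shorter genes. The distance to the start was thus similar in long and short genes, while the distance to the B box was larger in long ones.

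Stronger peaks had tighter positions. Among the 128 strongest tRNA peaks 86.7% of summits lay inside the gene and 63.3% in its first 30 bp, against 65.6% and 39.1% of the 128 weakest. Their medians were 15.5 bp (interval 13 to 18) and 18.5 bp (interval 11 to 25). Median positions on X (17 bp, n = 109) and on autosomes (15 bp, n = 147) did not differ beyond their intervals of 14 to 23 and 11 to 21 bp. The same held for the medians of genes on the plus (18 bp) and minus strand (15 bp), and of multi-copy (16 bp) and single-copy genes (15 bp). The spread was wider on autosomes, where 104 summits (70.75%) lay inside the gene and 13 after it, against 91 (83.5%) and 2 on X.

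The signal of a peak is the peak caller's own value as the authors deposited it, on a scale that is not stated. The median over tRNA peaks was 215 (interval 192 to 241), against 123 (interval 121 to 125) over the 1957 other nuclear peaks. tRNA peaks made up 11.6% of nuclear peaks, 34 of the 100 strongest and 140 of the 500 strongest (28%), but only 2 of the 25 strongest. Peaks at snoRNA genes had a median of 307.5 (n = 74, interval 199 to 370) and peaks at snRNA genes 196 (n = 15, interval 116 to 339), so tRNA peaks were not set apart from those of other small RNA genes.

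The strongest was the peak at C04A11.t1 (chrX:13665434-13665717), a single-copy tRNA-Leu gene between protein-coding genes. Its signal was 874 in the combined list, 412 in replicate 1 and 451 in replicate 2, where replicate values are those of the strongest overlapping region of each ranked list. The tRNA-Lys gene W03G11.t1 on X, 1 of 25 identical copies, had 833 combined, 379 and 448. The summit at M02F4.t1 and M02F4.t2, divergent genes on X, lay 19 bp before M02F4.t1, a tRNA-Gly gene, and had 777, 339 and 439. Both replicates placed these 3 peaks above every other tRNA peak named here, except that F15G9.t1 exceeded M02F4.t1 in replicate 2.

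Next came the peak over F15G9.t1 (tRNA-Ala, X) and its neighbour F15G9.t2, with 739 combined, 295 in replicate 1 and 441 in replicate 2. C28G1.t1 (tRNA-Glu, X) had 696, 338 and 351, with its summit 113 bp from a protein-coding start. T21B4.t1 (tRNA-Ile, II) had 686, 282 and 386. These peaks were in both replicates' own thresholded lists, as were all 12 strongest. F41D9.t3 (tRNA-Asn, X) had 680, 314 and 360, and B0523.t1 (tRNA-Trp, III) 649, 251 and 385. The printed genes F57F5.t1, ZC455.t1 and C02B4.t2 had 615, 606 and 605, and C37A2.t1 (tRNA-Cys, I) had 594. On chromosome IV the highest signal was 504, at the tRNA-Arg gene F29C4.t1. The 12 strongest peaks lay on every nuclear chromosome but IV, most of them on X.

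At the other end, 5 tRNA peaks had signals below 50 (3.55 to 17.6), while the remaining 251 had at least 93.9. All 5 overlapped a stronger conservative peak with a signal of 128 to 318, so each shares its span with another summit. The 3 weakest were C16C8.t1 (11.7), C35E7.t1 (8.79) and F58D5.t1 (3.55), with summits 119 bp before, 130 bp after and 178 bp after the gene. Their replicate signals of 57.1 to 100 are those of the strongest ranked region in reach, which may be the neighbouring one. Without the 5, the median position remained 16 bp and 77.7% of summits lay inside the gene. At the edge of the rule, F27D9.t1 (167 bp) and F58D5.t1 (178 bp) were just inside the limit of 200 bp. Just outside were the peaks nearest to C18A11.t2 (288 bp, signal 187) and T22F3.t3 (460 bp, signal 194), so no peak fell between 178 and 288 bp.

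Within the conservative list the 2 replicates ranked the tRNA peaks alike, which selection by the reproducibility step favours. Of 256 peaks, 172 (67.2%, exact interval 61.1 to 72.9%) were also called in the own list of each replicate, against 25.9% of other nuclear peaks and 30.7% of all nuclear peaks. Signals differ between the sets, and own lists hold the stronger regions. In the ranked lists 253 peaks had a region in both replicates, with median signals of 99.7 and 121.5. Across these peaks, which share libraries, Spearman's rho between replicates was 0.899 and Pearson's r 0.940. The list keeps regions that both replicates rank alike, so high values were in part set by that step. Over the 107 tRNA genes without a conservative summit but with a ranked summit in both replicates, rho was 0.278 and r 0.217. The ratio of replicate 2 to replicate 1 had a median of 1.26 for tRNA peaks and 1.18 for other nuclear peaks, and 90% of tRNA peaks lay between 0.903 and 1.79.

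Counted over genes, 45.3% of the 612 tRNA genes (exact interval 41.3 to 49.3%) had a summit within 200 bp, against 4.84% of all 46890 annotated nuclear genes. In the replicates' own lists the shares were 32.7% (200 genes) and 37.9% (232 genes), against 2.45% and 2.99% of all nuclear genes. Among the 335 tRNA genes without a conservative summit, 107 (31.9%) had a ranked summit in both replicates, near the 30.4% of all nuclear genes, most of which are longer and so have a wider reach. For the 277 genes with a summit that count was 271. By ranked signal the 107 genes had medians of 30.2 and 38.9, against 100 and 124 at the 271 genes with a summit. The conservative list favours regions that rank high in both replicates, so this order follows in part from the rule. Over all nuclear ranked regions the medians were 22.75 and 26.46, while each gene is given its strongest region.

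**Figure D2:**
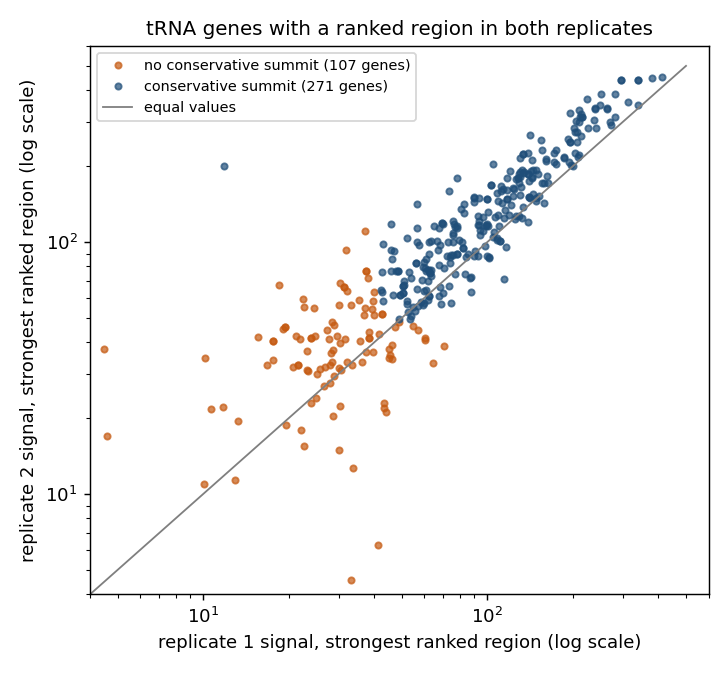
Signal of the strongest ranked region at each tRNA gene in replicate 1 (x axis) and replicate 2 (y axis), both on log scales, for genes with a region in both replicates. The 271 genes with a conservative summit lie along the diagonal above the 107 without one, and the cloud between them is continuous. Their order follows in part from how the conservative list was selected.

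The 5 genes without a conservative summit that had the highest signal in their weaker replicate show how near the limit some came. K02E11.t1 (tRNA-Gln, V) had 49 in replicate 1 and 48.3 in replicate 2. F54F7.t1 (tRNA-Gln, X) had 54.6 and 46.3, and F52E10.t3 (tRNA-Glu, X) 47.4 and 46.0. F28F8.t1 (tRNA-Ser, V) had 56.9 and 44.9, and ZK154.t2 (tRNA-Asn, X) 42.7 and 51.9, the same region as its neighbour ZK154.t5. Single replicates went higher at other genes without a summit, such as ZC412.t2 (tRNA-Cys, V), with no ranked summit in replicate 1 and 134 in replicate 2. These values overlap the lowest of the genes with a summit. At 123 of the 335 genes neither replicate had any ranked region. Of the genes with a summit, 3 had a ranked summit in replicate 1 only (K01A12.t2 and K01A12.t3, 70.1 each at a shared summit, and T25B6.t2, 69.8), 1 in replicate 2 only (F18G5.t1, 54.4) and 2 in neither (C48C5.t3 and T06H11.t3). Among those with both, F46G11.t1 (tRNA-Pro, X) had 11.8 in replicate 1 and 199 in replicate 2. Its conservative summit lies 160 bp away, nearer to the divergent F46G11.t2, and that peak had 199.7 and 199.4 in the replicates, so the low value is that of another region.

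tRNA genes with identical copies had summits more often than genes with a unique sequence. A multi-copy gene here shares its whole sequence with another tRNA gene. Of 469 multi-copy genes 236 had a summit (50.3%), against 41 of 143 single-copy genes (28.7%), a difference of 21.6 percentage points (Newcombe interval 12.6 to 29.8). The own lists gave 18.0 points (interval 9.65 to 25.1) in replicate 1 and 16.6 points (interval 7.76 to 24.45) in replicate 2. The difference appeared on X (48.4% against 22.8%), on autosomes (52% against 32.6%) and among lone genes (55.8% against 30%). There was no steady rise with copy number: genes with 2 to 4 copies had 46.3%, 5 to 9 copies 42.4%, 10 to 19 copies 49% and 20 or more copies 60.5%. In the own list of replicate 1 the last class (38.7%) was not above the one before it (38.9%).

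Copy number did not go with peak strength: peaks nearest to a multi-copy gene had a median signal of 215 (interval 192 to 249, n = 219) and those nearest to a single-copy gene 212 (interval 180 to 258, n = 37). How reads that match several copies were placed is not known from the labels. Of the 50-base words that cover a gene and 200 bp on each side, a median of 91.2% were unique in the genome for multi-copy genes and 97.9% for single-copy genes. Single-copy genes with 1 difference from another tRNA gene had 33.3% (n = 57) and the more divergent ones 25.6% (n = 86), with overlapping intervals of 21.4 to 47.1% and 16.8 to 36.1%.

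Identical genes did not behave alike. The 469 multi-copy genes form 57 families, of which 6 had a summit at every copy, 43 at some and 8 at none. Each of the 20 families with 10 or more copies was mixed, with 27.3 to 73.3% of copies at a summit. The 5 largest were tRNA-Gly (20 of 29 copies), tRNA-Lys (14 of 25), tRNA-Pro (14 of 24), tRNA-Asp (12 of 21) and tRNA-Glu (12 of 20). The following are 4 of the large families, each given by 1 copy on chromosome II with the same capitals as above, and both box matches are present in all 4. Of the 20 families with 10 or more copies, 16 have both matches, and 4 (the largest tRNA-Gly family, tRNA-Asn, tRNA-Trp and a tRNA-Arg family) have the B box match without the A box match.
ZK970.t1, tRNA-Pro, chrII:10302399-10302470: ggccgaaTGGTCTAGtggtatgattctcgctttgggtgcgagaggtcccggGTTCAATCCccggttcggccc
C13B4.t1, tRNA-Gln, chrII:14474842-14474913: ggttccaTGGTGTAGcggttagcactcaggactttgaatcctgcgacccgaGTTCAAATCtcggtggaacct
C16C8.t2, tRNA-Thr, chrII:3439219-3439290: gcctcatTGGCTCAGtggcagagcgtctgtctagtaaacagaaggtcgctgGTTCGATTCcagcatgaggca
M03A1.t1, tRNA-Ala, chrII:4565389-4565460: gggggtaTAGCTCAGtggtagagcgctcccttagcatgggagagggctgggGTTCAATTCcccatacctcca
A summit was found at 14 of 24 copies of the tRNA-Pro gene, 5 of 15 of the tRNA-Gln gene, 8 of 15 of the tRNA-Thr gene and 11 of 15 of the tRNA-Ala gene.

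The internal promoter letters did not separate genes with and without a summit. The A box match TNGNNNAG was present in 84.5% of genes with a summit and 83.0% of those without, and the B box match GTTCNANNC in 96.0% and 95.8%, both read on the gene's strand. The stricter TNGCNNAG was present in 42.6% and 44.8%, and GTTCGANTC in 43.3% and 46.0%. A run TTTT in the 40 bases after the gene was found at 99.6% and 98.2%. Within 50 bp of the summit, on either strand, TNGNNNAG was found at 83.2% of tRNA peaks and at 46.9% of other nuclear peaks. There GTTCNANNC was found at 57.8% and 5.01%, TNGCNNAG at 43.4% and 19.2%, and GTTCGANTC at 23.8% and 0.664%. tRNA peaks were chosen for lying at tRNA genes, which hold these letters, so the higher shares follow from that rule. A match is a description of letters and not a measured binding site.

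The DNA before the gene did differ. Genes with a summit had a median GC content of 46% in the 100 bases before the gene (interval 45 to 46%, n = 277), and genes without one 38% (interval 37 to 39%, n = 335). Of 51 genes with less than 30% GC there, 4 had a summit (7.84%, exact interval 2.18 to 18.9%). The share rose over the classes from 30 to 50% GC and reached 73.9% (68 of 92, interval 63.7 to 82.5%) at 50% GC or more. The replicates' own lists went from 5.88 to 62.0% and from 3.92 to 69.6% over the same classes. This measure was chosen after other tables of these data had been seen.

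**Figure D3:**
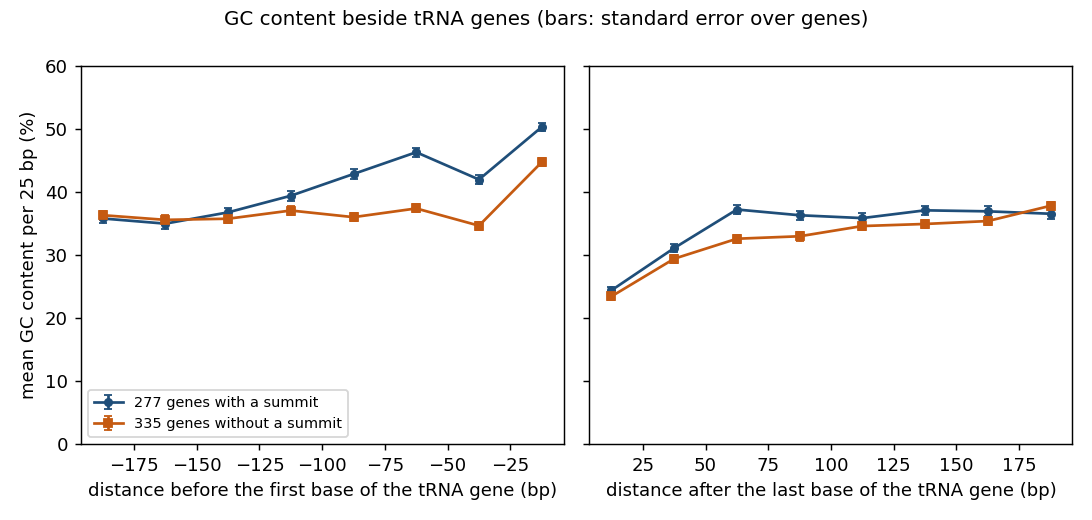
Mean GC content in steps of 25 bp (y axis, %) before the first base (left) and after the last base (right) of the tRNA genes with a summit (circles, n = 277) and without one (squares, n = 335); bars are standard errors over genes. The lines part most in the 100 bp before the gene, with 46.3% against 37.4% from 75 to 50 bp before it. They lie close together beyond 125 bp before it, and part less from 50 to 100 bp after the gene.

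The difference was local and largest on the upstream side. From 75 to 50 bp before the gene the means were 46.3 ± 0.731% (SE over 277 genes) and 37.4 ± 0.634% (SE over 335 genes). From 200 to 175 bp before it they were 35.8 ± 0.774% and 36.3 ± 0.718%, and in the first 25 bp after the gene 24.4 ± 0.564% and 23.4 ± 0.502%. Between 50 and 75 bp after the gene a smaller gap appeared, 37.2 ± 0.759% against 32.6 ± 0.653%. From 75 to 100 bp after it the means were 36.3 ± 0.719% and 33.0 ± 0.671%. In the 100 bases the gap was 8 points on X, 7 on autosomes, 8 for multi-copy, 8.5 for single-copy, 9 for lone and 5 for clustered genes. It was 8 points in genes more than 500 bp from a protein-coding start. At protein-coding genes the same measure had no such gap, with a median of 31% for the 1057 genes that had a summit within 500 bp of their start and 32% for the other 18916.

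It was also present among identical genes, where the sequence of the annotated gene span is the same. In 24 families at least 3 copies had a summit and at least 3 had none, and the median GC before the gene was higher beside the copies with a summit in 22 of them. It was equal in the largest, tRNA-Gly (39% in both sets), and lower by 1.5 points in 1 tRNA-Ala family. The median difference over the 24 was 8 points and the highest 14.5 points, in a tRNA-Asn and a tRNA-His family. GC content also affects how fragments are amplified and sequenced, and without a control library its part in these shares was not tested. Among peaks with 1 tRNA gene, Spearman's rho between this GC content and signal was only 0.270 (Pearson's r 0.219, n = 230), a description across peaks of the same libraries.

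A pair of tRNA-Pro copies with at least 80% unique words is printed as an example of extremes. The first has the highest signal in its weaker replicate. The second was taken among copies without a summit, as the one with the lowest signal. Ties were broken by the greatest distance from a conservative summit. Each line holds 100 bases before the gene in lower case and its first 20 bases in capitals.
ZK899.t1, with a summit, chrX:9467781-9467900: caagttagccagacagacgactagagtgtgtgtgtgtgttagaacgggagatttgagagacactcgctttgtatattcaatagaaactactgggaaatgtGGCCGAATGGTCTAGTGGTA
R11G10.t1, without a summit, chrV:13509593-13509712: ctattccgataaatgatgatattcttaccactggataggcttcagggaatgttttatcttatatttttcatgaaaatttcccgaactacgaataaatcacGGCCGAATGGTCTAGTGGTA
ZK899.t1 had ranked signals of 211 and 222 in replicates 1 and 2. R11G10.t1 had no ranked region in either replicate, and the closest conservative summit was 41310 bp away. The genes are identical, while 27 of the 100 bases before them match position by position. GC content there was 42% and 32%, and unique words made up 91.0% and 83.5%. The gap in GC is wider than that of the whole family, with medians of 43.5% at copies with a summit and 39% at the others.

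Clusters went with fewer summits on X but not on autosomes in the combined list. Neighbouring tRNA genes less than 1000 bp apart were joined, which gave 476 groups, 100 of them with 2 or more genes. On X, 42 of 135 clustered genes had a summit (31.1%, exact interval 23.4 to 39.6%), against 77 of 141 lone genes (54.6%, interval 46.0 to 63.0%). The replicates' own lists gave 25.2% against 44.0% and 27.4% against 48.2%. On autosomes the shares were 50.5% of 101 clustered (interval 40.4 to 60.6%) and 45.5% of 235 lone genes (interval 39.0 to 52.1%), but 26.7% against 32.8% in replicate 1 and 36.6% against 38.3% in replicate 2. Over all chromosomes the difference, clustered minus lone, was -9.53 percentage points (Newcombe interval -17.4 to -1.43), and the own lists gave -11.1 and -10.7. With a reach of 100 bp it was -16.7 points and with 500 bp -3.6 points (interval -11.6 to 4.52), since a wider reach lets 1 summit serve more neighbours. Clustered genes on X also had the lowest GC content before the gene, a median of 38% against 42% for lone genes on X. At less than 40% GC the shares of clustered and lone genes on X were 20.5% (n = 78) and 19.7% (n = 61). From 40 to 45% they were 38.9% (interval 23.1 to 56.5%, n = 36) and 82.8% (interval 64.2 to 94.2%, n = 29), and at 45% or more 57.1% (n = 21) and 80.4% (n = 51).

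Groups of 2 or more genes were often all or none: 29 had a summit at every gene, 26 at some and 45 at none. Because 1 summit can serve neighbours within 200 bp, genes of a group are not independent. The 5 largest groups are given next, the last of them 1 of 4 groups tied at 4 genes. In the F22F1 group on X, with tRNA-Ser, tRNA-Asp, tRNA-Met and tRNA-Ile genes, 4 of 6 genes had a summit, and F22F1.t6 (tRNA-Met) was the strongest with 264 and 339 in the replicates. None of the 6 tRNA-His genes of the F28H6 group on X had one. In that group 8.51 to 88.7% of the words were unique, and the part of repeated sequence in the absence of summits was not tested.

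The H08J11 group on X holds 5 tRNA-Gln genes with 87 to 93.6% unique words. H08J11.t3 alone had a summit, with 96.8 and 110.5 in the replicates, and its 4 neighbours had no ranked region in either. GC content before the gene was 42% at H08J11.t3 and 36 to 48% at the others, so it did not order these genes. In the K01A12 group of tRNA-Arg and tRNA-Cys genes 2 of 5 were within reach of 1 summit, and replicate 1 alone had a ranked summit there (70.1). The other 3 genes had a ranked summit in replicate 2 only (34.3). All 4 tRNA-Gly genes of the C12C8 group on I were within reach of 2 summits, with GC contents of only 29 to 35%. The other groups of 4 genes had a summit at 2 genes (Y65A5A, IV), 1 gene (R11, X) and 1 gene (T01B4, X).

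There were 26 peaks with 2 tRNA genes in reach. Of these, 13 lay at divergent genes, and in 10 (76.9%, exact interval 46.2 to 94.96%) the summit was between the genes, in the shared upstream DNA. At the 13 convergent or same-strand pairs it was between the genes in 4 (30.8%, interval 9.09 to 61.4%), 1 of them the weak peak at T06H11.t2 and T06H11.t3 that overlaps a stronger one. The intervals overlap, and the difference was not tested. Without that peak it was 3 of 12. The median signal of these 26 peaks was 192 (interval 148 to 299), against 220 (interval 193 to 245) for the 230 peaks with 1 tRNA gene.

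X carries 276 of the 612 tRNA genes, and the share with a summit was not distinguishable from that of autosomes. It was 43.1% on X and 47.0% on autosomes, a difference, X minus autosomes, of -3.91 points (Newcombe interval -11.7 to 4.0). In the own lists X was higher by 3.83 points (replicate 1) and 0.246 points (replicate 2), so the direction was not stable. Chromosome V was lowest with 23 of 78 genes (29.5%, exact interval 19.7 to 40.9%), also in both own lists (20.5% and 25.6%). The other autosomes ranged from 46.5% (IV) to 57.8% (III). None of the 26 genes on V with less than 40% GC before the gene had a summit, which allows a share of up to 13.2% by the exact interval, against 22.6% of the 221 such genes elsewhere. From 40 to 45% GC V had 16.7% (4 of 24, interval 4.74 to 37.4%) and the rest 56.3% (67 of 119, interval 46.9 to 65.4%). At 45% GC or more V had 67.9% (19 of 28) and the rest 70.6%.

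**Figure D4:**
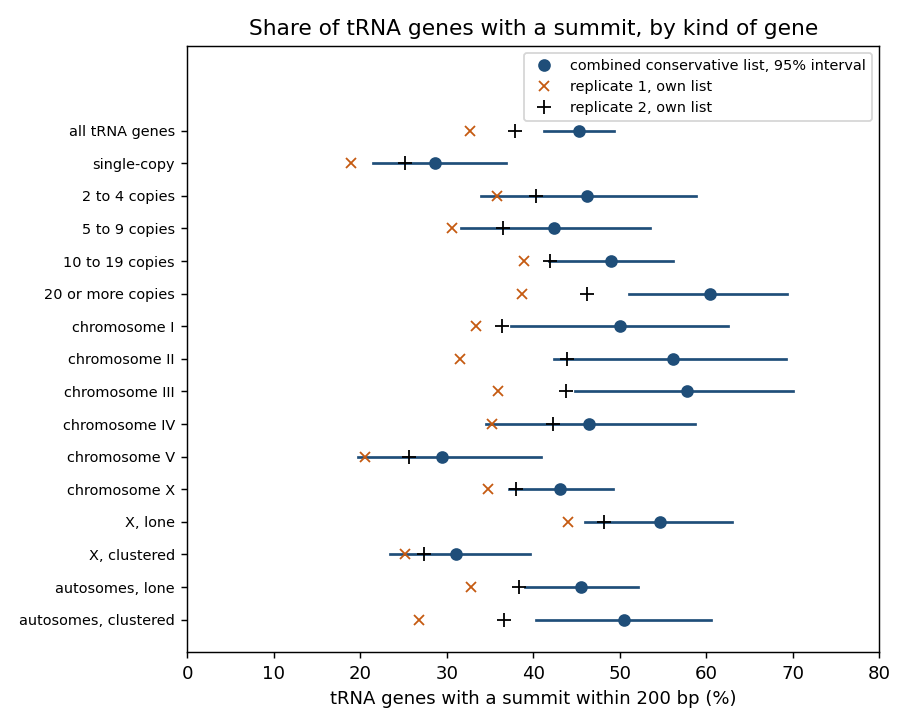
Share of tRNA genes with a summit within 200 bp (x axis, %) by copy number, chromosome and clustering, in the combined conservative list (circles with exact 95% intervals) and in the own lists of replicate 1 (x) and replicate 2 (+). Single-copy genes, chromosome V and clustered genes on X lie lowest, at 28.7, 29.5 and 31.1%, and the own lists show the same 3 kinds low.

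Over all tRNA peaks the median signal was higher on X than on autosomes, with intervals that overlap slightly. The median signal was 269 on X (interval 215 to 310, n = 109) and 191 on autosomes (interval 177 to 220, n = 147), and 118 against 86.8 in replicate 1 and 154.5 against 114 in replicate 2. By place, in the central 50% of the chromosome the medians were 220 on X (interval 196 to 283, n = 65) and 212 on autosomes (interval 177 to 255, n = 73), and outside it 313 (interval 240.3 to 350, n = 44) and 183.5 (interval 166 to 220, n = 74). The replicates gave 102 against 96.9 and 143 against 114 in the central 50%, and 129 against 80.1 and 181 against 114 outside it. Other nuclear peaks showed no such order, with 120 on X (interval 115 to 125) and 124 on autosomes (interval 122 to 126). Within 10 families of identical genes that had at least 3 peaks on each side, the median was higher on X in 5, in 6 by replicate 1 and in 5 by replicate 2. The largest gaps were in tRNA-Gly (431 on X, 149 on autosomes) and, the other way, in tRNA-Cys (163 and 315). The order seen over all peaks was thus not general among identical genes. By place, X had the higher median both in the central 50% and outside it, but in the central 50% the gap was small and the intervals overlap.

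**Figure D5:**
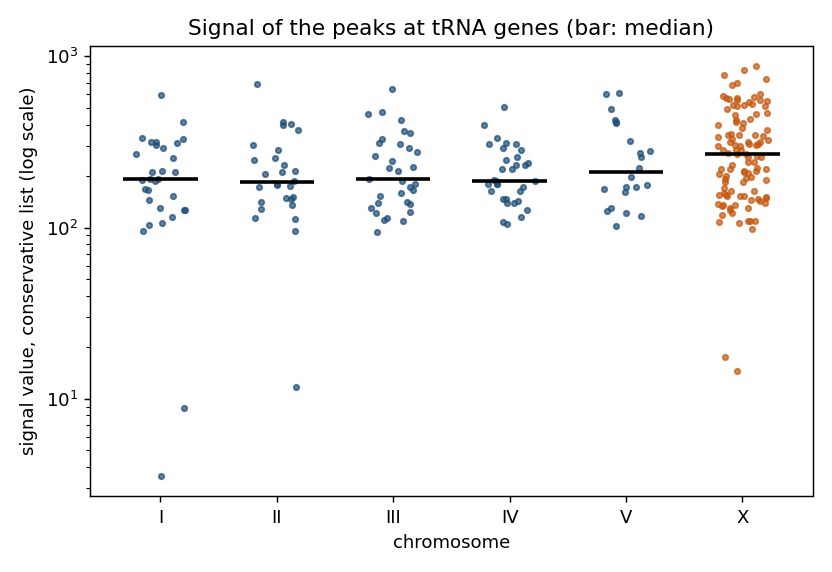
Signal of each of the 256 tRNA peaks (y axis, log scale) by chromosome (x axis), with horizontal bars at the medians. The X median of 269 is above the autosomal ones, which lie between 183 (II) and 211 (V), and the 5 points below 50 overlap a stronger peak.

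The share was not distinguishable between strands in the combined list, but it was higher on the plus strand in both own lists. Genes on the plus strand had a summit in 49% (146 of 298) and those on the minus strand in 41.7% (131 of 314), a difference of 7.27 points whose interval (-0.61 to 15) includes 0. The own lists gave 8.25 points (interval 0.814 to 15.6) and 9.83 points (interval 2.14 to 17.4). Genes inside a protein-coding gene on the same strand (47.6%), on the opposite strand (48.8%) and between protein-coding genes (42.5%) had overlapping intervals. Genes within 500 bp of a protein-coding start had 50% (52 of 104) and those farther away 44.3% (225 of 508).

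By amino acid, as given by RefSeq for 607 of the 612 genes, no isotype with 10 or more genes was without a summit. The shares were highest for tRNA-Asp (59.3%, 16 of 27), tRNA-Ala (58.8%, 20 of 34) and tRNA-Glu (58.5%, 24 of 41). They were lowest for tRNA-His (25%, 5 of 20), tRNA-Gln (29.6%, 8 of 27) and tRNA-Ser (30.8%, 12 of 39). The exact intervals of highest and lowest overlap (38.8 to 77.6% for tRNA-Asp, 8.66 to 49.1% for tRNA-His). Median signals ran from 168.5 at 10 tRNA-Met peaks to 427 at 9 tRNA-Ser peaks, with wide intervals of 138 to 476 and 208 to 573.

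Genes for the tRNA transcription and processing machinery were taken from a list of RNA polymerase III subunits, transcription factors and processing enzymes. The list also held genes outside these classes, such as xpo-3 and adr-1, which count in the share. Of 29 listed names 26 matched the annotation, and 1 (3.85%) had a summit within 500 bp of its start, against 5.29% of protein-coding genes. That was rpac-19, which encodes a subunit shared by RNA polymerases I and III, with a summit 109 bp from its start and a signal of 180. The share is near the background.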

How the data were processed

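The authors deposited peak lists on assembly ce11, per the labels, from 2 biological replicates of 1 group. Each list gives a signal value per region, deposited by the authors as the peak caller wrote it, and a score from the reproducibility (IDR) step, deposited by the authors and used here only to check the lists. Neither the depth per sample nor the aligner, the peak caller and its treatment of reads with several matches is stated in the sources used here. The main list was the combined conservative one. The own lists are the thresholded lists of each replicate, and the ranked lists hold all of its regions (59566 and 58888 nuclear ones). Genes came from WBcel235, annotation release 115, and amino acids from RefSeq.

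A summit within 200 bp of a gene called it. Genes under 1000 bp apart formed a group, genes with the same sequence a family. Shares have exact Clopper-Pearson intervals, differences Newcombe intervals and medians order-statistic intervals, all at 95% and without p-values; genes that share a peak or a sequence are not independent. Python 3.11.15, pandas 2.3.3, numpy 2.4.6, scipy 1.17.1 and matplotlib 3.10.9 were used, and the measures were tested on simulated summits.

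The named genes were the 12 strongest and 3 weakest tRNA peaks, the strongest per chromosome, the 5 largest groups and families, the 5 genes without a summit with the highest ranked signal in their weaker replicate, and the peaks on each side of the 200 bp limit. F46G11.t1, T25B6.t2, F18G5.t1, C48C5.t3, T06H11.t3, ZC412.t2, the other groups of 4 genes, ZK899.t1, R11G10.t1 and the peaks below 50 were picked with their values known. The members, lists and measures were chosen with earlier results of these data known. Alternatives were each replicate's own list, the other combined list, the 500 strongest peaks, windows of 100 and 500 bp, group gaps of 500 and 2000 bp, and other definitions of identity and of overlap. The 22 mitochondrial tRNA genes were left out of every share.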

Additional observations from a re-analysis of the deposited data

Results flagged for a closer look

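Outside the nuclear genes the report counts, 11 of the 22 mitochondrial tRNA genes had a conservative summit within 200 bp, from 21 peaks on the mitochondrial chromosome. The share over the other mitochondrial genes was not counted, so the count is not shown to be particular to tRNA genes. No control library was analysed here, and the high copy number of mitochondrial DNA and its part in this count were not tested.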

How the results depend on the processing

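The gap between multi-copy and single-copy genes and the lower share of clustered genes kept their direction in every alternative run with 1 exception: the first turned to -45.4 points when identity had to include 50 bp on each side, where only 2 genes count as multi-copy. The interval of the second included 0 with the other combined list (-8.05 points), a reach of 500 bp (-3.6), a gap under 500 bp (-8.1) and genes with 80% unique words (-7.97, added after seeing the data). Of 92 alternative values 75 lay within the 95% interval of the reported value. These include X minus autosomes of 3.83 and 0.246 points with the own list of replicate 1 and 2, whose direction is opposite to the reported -3.91. With the 500 strongest peaks, 24.8% of tRNA genes had a summit, X was higher by 5.58 points and multi-copy genes by 12.3 points; 11.4% of summits lay before the gene and 87.1% inside it, the median signal was 315, tRNA peaks were 28% of peaks, and 98.6% were in both own lists. With groups in place of genes X was higher by 4.42 points. Leaving out 1 replicate, by using the other's own list, gave 32.7 to 37.9% of genes, median positions of 12 to 16.5 bp, median signals of 117 to 135 and 18.5 to 20.9% of nuclear peaks; signal scales may differ between lists. The alternative with only genes whose words are all unique could not be run for copy number, since 0 multi-copy genes (of 56 such genes) qualify. No paired analysis was possible because there is 1 group. Peak lists without depth cannot show whether genes without a summit lack binding.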

Other observations

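The DNA before tRNA genes with a summit also differed in short words. All 512 words of 5 letters, each with its reverse complement, were compared in the 100 bases before the autosomal genes, and the leading words were then counted on X, whose genes had no part in the choice. AGAGA was present before 58.2% of 158 autosomal genes with a summit and 27.0% of 178 without, and on X before 52.9% of 119 and 17.8% of 157. CTCTC was present before 41.1% and 19.1% on autosomes and 52.9% and 11.5% on X. The opposite held for AAATT, with 24.7% against 52.2% on autosomes and 30.3% against 56.7% on X, and for AAAAA, with 38.6% against 66.3% and 45.4% against 66.9%. Before 19973 protein-coding genes AGAGA was found in 25.8%, CTCTC in 17.0%, AAATT in 64.9% and AAAAA in 77.4%. Among multi-copy tRNA genes AGAGA stood before 55.5% of 236 with a summit and 21.0% of 233 without. These words overlap each other, and no factor is named from them. They lie in the same 100 bases whose GC content differed, and AAAAA and AAATT hold only A and T. The part of GC content in these shares was not tested. The letters TATA in the 50 bases before the gene were about equally frequent, at 18.4% and 17.3%.

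Copy number and GC content before the gene were not the same difference. Multi-copy and single-copy genes had similar medians there, 42% (interval 41 to 43%) and 41% (interval 39 to 43%). Below 40% GC a summit was found at 23.8% of 185 multi-copy (interval 17.8 to 30.6%) and 9.68% of 62 single-copy genes (interval 3.64 to 19.9%). From 40 to 45% the shares were 55.2% of 116 (interval 45.7 to 64.4%) and 25.9% of 27 (interval 11.1 to 46.3%). At 45% or more they were 76.2% of 168 (interval 69.0 to 82.4%) and 51.9% of 54 (interval 37.8 to 65.7%). The intervals overlap below 45% GC. The part of GC content in the difference by copy number was not tested.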
